A study of Homo sapiens with 12 samples.

Results

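HLA-B, HLA-C, HLA-E and HLA-F encode heavy chains of MHC class I molecules, B2M encodes the light chain they share, and NLRC5 encodes the transactivator of class I genes. These 6 genes were taken by symbol from the 27685 rows of the count table, and all 6 passed the filter on low counts. Poly(A) RNA of the human glioblastoma line U251 had been sequenced, with 3 samples in each of 4 groups. The groups were cells with a stable control short hairpin RNA (shCTRL), untreated or given interferon gamma (IFNγ) for 24 h, and cells with a stable hairpin against the long noncoding RNA INCA1 (shINCA1), untreated or given IFNγ for 24 h. All cells were of passages 14 to 18, and every group carried a hairpin. The study's title gives its question as how INCA1 regulates interferon signalling in tumours.

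A class I molecule is a heavy chain bound to β2-microglobulin and to a peptide, and it shows fragments of the cell's own proteins to T cells. HLA-B and HLA-C are classical, highly variable chains. HLA-E is a conserved chain that presents signal peptides of other class I chains to NKG2 receptors of natural killer cells, and HLA-F is a nonclassical chain that can reach the surface without peptide. IFNγ acts through JAK kinases and induces IRF1 and NLRC5, and NLRC5 is recruited to the S-X-Y enhancer in the promoters of class I genes and B2M.

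Promoter sequences are shown because NLRC5 acts at these promoters and the genes responded to different degrees. Of the 6 genes, 4 matched the RefSeq promoter table (GRCh38.p14), and HLA-E and NLRC5 did not match. Each line gives the 250 bases before the start, 5′ to 3′ on the gene's strand. HLA-B is at chr6:31357180-31357429 (minus strand), HLA-C at chr6:31272093-31272342 (minus), HLA-F at chr6:29723184-29723433 (plus) and B2M at chr15:44711267-44711516 (plus). Capitals mark matches, on either strand, to the core of the interferon-stimulated response element (2 copies of TTTC with 2 bases between them), TTCNNNGAA (gamma activated site), TGACGC (X2 part of the enhancer), CCAAT (Y part) and GGGNNTTCC (NF-κB core).
HLA-B: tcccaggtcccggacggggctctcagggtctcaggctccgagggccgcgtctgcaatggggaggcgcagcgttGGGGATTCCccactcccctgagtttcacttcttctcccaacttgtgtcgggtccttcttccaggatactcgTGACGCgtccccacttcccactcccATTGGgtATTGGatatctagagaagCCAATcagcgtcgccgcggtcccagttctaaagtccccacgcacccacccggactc
HLA-C: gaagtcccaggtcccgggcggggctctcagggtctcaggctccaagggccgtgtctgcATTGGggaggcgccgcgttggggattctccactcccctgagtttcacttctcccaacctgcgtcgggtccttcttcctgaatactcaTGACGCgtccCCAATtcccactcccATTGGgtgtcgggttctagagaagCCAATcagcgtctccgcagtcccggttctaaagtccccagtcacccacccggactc
HLA-F: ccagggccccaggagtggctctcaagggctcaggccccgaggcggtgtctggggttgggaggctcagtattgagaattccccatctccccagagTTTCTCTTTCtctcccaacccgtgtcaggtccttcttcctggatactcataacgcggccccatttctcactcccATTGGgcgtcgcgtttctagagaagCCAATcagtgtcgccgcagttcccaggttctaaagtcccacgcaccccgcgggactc
B2M: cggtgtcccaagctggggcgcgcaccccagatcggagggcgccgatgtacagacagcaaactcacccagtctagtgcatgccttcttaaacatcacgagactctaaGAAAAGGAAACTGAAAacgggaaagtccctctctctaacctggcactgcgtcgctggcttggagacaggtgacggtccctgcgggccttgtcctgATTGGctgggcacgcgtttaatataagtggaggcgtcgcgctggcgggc

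HLA-B and HLA-C shared TGACGC, at 106 to 101 and 105 to 100 bases before the start. These letters were in 7.67% of all 35116 promoter windows of this length. HLA-F and B2M held the interferon-stimulated response element core, present in 3.02% of windows: HLA-F at 156 to 147 bases before the start, and B2M in 2 overlapping matches at 144 to 135 and 138 to 129 on the other strand. CCAAT, present in 32% of windows, occurred in all 4 promoters. GGGNNTTCC, in 5.78% of windows, occurred in HLA-B alone of the 4, and TTCNNNGAA, in 6.57%, was not in these windows. A match of letters is a description of the sequence and was not tested for binding. Only exact letters were searched, so variants of a motif are not marked. CCAAT was marked wherever it occurred, not only beside TGACGC.

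The libraries held 46525032 to 66242859 estimated counts, and within a group the log CPM of any 2 libraries (CPM use TMM-scaled library sizes) correlated at 0.983 to 0.987. Whether replicates were separate cultures is not stated, so the tests measure only the spread among these libraries, which may be technical. The labels name a single line for each hairpin, so hairpin and line cannot be told apart, and the level of the targeted RNA was not analysed here. In bulk RNA fewer cells of a type and less RNA per cell cannot be told apart. Of 10 astroglial and glioma markers, 8 to 9 averaged above 1 CPM per group, and the 10 summed to 4560 to 4905 CPM in shCTRL and 3885 to 4100 CPM in shINCA1 libraries, with group means of VIM from 1818 to 2565 CPM. The glial marker GFAP was low, at 0.348 to 1.59 CPM in the group means. Between untreated lines 6 of the 10 were lower in shINCA1 cells and 3 higher, beside 29.5% and 27.4% of all tested genes. The log2 difference was -2.03 for NES, -2.07 for FABP7, -2.88 for S100B and -2.18 for GFAP. It was 1.92 for OLIG2 and 0.43 for CD44, so the sum hides differences in both directions. Of 12 immune cell markers 7 to 8 were at 0 in every library of a group, CD3E among them, and their sum was 11.4 to 15.3 CPM, mostly CD68. The 5 endothelial markers summed to 6.22 to 9.72 CPM in shCTRL and 8.01 to 16.9 CPM in shINCA1 libraries. The 5 epithelial markers summed to 89.8 to 96.4 CPM in shCTRL and 239.8 to 268.8 CPM in shINCA1 libraries, nearly all KRT18, with EPCAM and CDH1 at or near 0. The part of these markers in differences between the lines was not tested. HLA genes share reads with each other and vary between alleles, and how such reads were assigned is not known here, so values of single HLA genes are uncertain.

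B2M had the highest level per transcript length in every group. In untreated shCTRL cells it stood at 361.9 ± 11.6 CPM per kb (SD, n = 3), using the length of the reference transcript (943 bases for B2M, 6781 for NLRC5). HLA-E followed at 31.7 ± 0.55 CPM per kb and HLA-C at 15.3 ± 3.92. HLA-B (4.16 ± 0.47) and HLA-F (4.15 ± 0.31) overlapped, and NLRC5 was lowest at 1.04 ± 0.06. With IFNγ the shCTRL order became B2M (759 ± 6.22), HLA-E (242.7 ± 3.76), HLA-C (42.0 ± 0.91), NLRC5 (22.8 ± 0.85), HLA-B (17.9 ± 0.41) and HLA-F (6.71 ± 0.19). NLRC5 thus moved from below HLA-B and HLA-F to above both, with no overlap of libraries.

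The order was the same in shINCA1 cells on this scale, except that untreated HLA-B (5.07 ± 0.13 CPM per kb) lay above HLA-F (3.99 ± 0.23). Untreated HLA-E (25.3 ± 1.60) and HLA-C (22.5 ± 0.65) were close, with the lowest HLA-E library at 23.5 and the highest HLA-C library at 23.2. NLRC5 was at 0.376 ± 0.07. With IFNγ the levels were 622.3 ± 7.70 for B2M, 131.1 ± 2.78 for HLA-E, 35.9 ± 2.76 for HLA-C, 16.0 ± 0.21 for NLRC5, 9.86 ± 0.85 for HLA-B and 5.05 ± 0.28 for HLA-F.

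In shCTRL cells IFNγ raised all 6 genes, where 9.72% of the 15769 tested genes were higher, 7.51% lower and 17.2% changed either way. The split of higher to lower genes was 1532 to 1184, and 1201 to 1970 with upper-quartile factors. NLRC5, the transactivator, was at 7.51, 6.68 and 7.07 CPM in the untreated libraries and at 161.1, 151.5 and 150.8 CPM with IFNγ. The groups were far apart, and the log2 change was 4.44 ± 0.09 (SE, adjusted p = 5.58e-12), the largest of the 6. HLA-E was the heavy chain with the largest change. Its libraries held 79.2, 80.9 and 81.9 CPM untreated and 607.5, 625.5 and 622.1 CPM with IFNγ, a log2 change of 2.94 ± 0.04 (adjusted p = 3.19e-13).

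HLA-B held 6.41, 7.11 and 5.67 CPM untreated and 26.9, 28.1 and 27.3 CPM with IFNγ, a log2 change of 2.10 ± 0.09 (adjusted p = 4.43e-09). The lowest treated library lay far above the highest untreated one. HLA-C held 27.6, 16.7 and 26.7 CPM untreated, library 2 lying well below the others, and 63.2, 65.9 and 65.1 CPM with IFNγ. Its log2 change was 1.45 ± 0.14 (adjusted p = 1.47e-05), and 1.24 (adjusted p = 1.42e-07) without untreated library 2.

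HLA-F had the smallest fitted change. It held 6.64, 5.73 and 6.04 CPM untreated and 9.61, 10.14 and 10.04 CPM with IFNγ, groups that did not overlap, with a log2 change of 0.69 ± 0.08 (adjusted p = 3.97e-05). Its antisense neighbour HLA-F-AS1, whose reads cannot be told apart from HLA-F where strand was not used, did not pass the test (0.18 ± 0.16, adjusted p = 0.509). B2M, the shared light chain, went from 330.1, 351.9 and 341.9 CPM to 717.9, 720.2 and 709.1 CPM. This was a log2 change of 1.07 ± 0.03 (adjusted p = 3.71e-11), below the fitted changes of HLA-B, HLA-C and HLA-E. Its treated libraries lay within a narrow band.

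**Figure D1:**
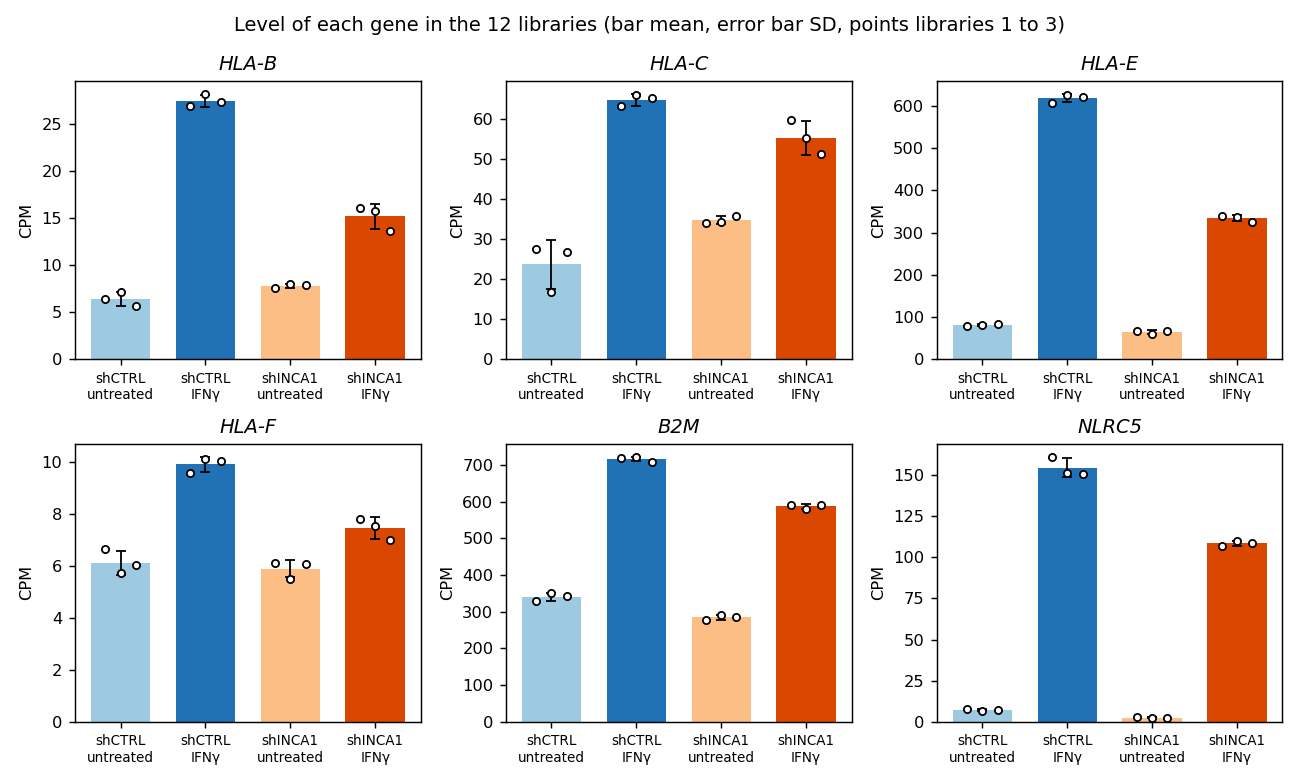
Level of each of the 6 genes in CPM on the vertical axis (starting at 0, scale differing between panels) in the 4 groups. Bars are means, error bars SD (n = 3) and points single libraries. The IFNγ libraries lie above the untreated libraries of the same line in every panel, and HLA-C in untreated shCTRL library 2 is the low point at 16.7 CPM.

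In shINCA1 cells IFNγ also raised all 6 genes, where 6.13% of tested genes were higher, 2.95% lower and 9.08% changed either way. The split was 967 to 465, and 815 to 733 with upper-quartile factors. NLRC5 held 3.05, 2.13 and 2.48 CPM untreated and 107.2, 110.1 and 108.5 CPM with IFNγ, a log2 change of 5.41 ± 0.10 (adjusted p = 2.37e-12). HLA-E went from 66.4, 59.8 and 67.3 CPM to 339.0, 337.5 and 326.0 CPM, a log2 change of 2.37 ± 0.04 (adjusted p = 2.26e-12). It was again the heavy chain with the largest change. B2M went from 277.6, 290.3 and 286.1 CPM to 592, 578.6 and 590.0 CPM, a log2 change of 1.04 ± 0.03 (adjusted p = 6.18e-11).

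The other heavy chains changed by about 1 log2 unit or less in shINCA1 cells. HLA-B held 7.56, 7.93 and 7.88 CPM untreated and 16.0, 15.7 and 13.7 CPM with IFNγ (log2 change 0.96 ± 0.08, adjusted p = 8.05e-06). HLA-C held 33.9, 34.4 and 35.8 CPM untreated and 59.6, 55.1 and 51.1 CPM with IFNγ (0.67 ± 0.14, adjusted p = 0.00899). HLA-F held 6.13, 5.52 and 6.07 CPM untreated and 7.83, 7.57 and 7.02 CPM with IFNγ (0.34 ± 0.08, adjusted p = 0.0149). In each of these genes the untreated and treated libraries did not overlap. The HLA-F call was lost without untreated library 2 (adjusted p = 0.0654) or IFNγ library 1 (0.0661) or 2 (0.0531) of shINCA1.

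**Figure D2:**
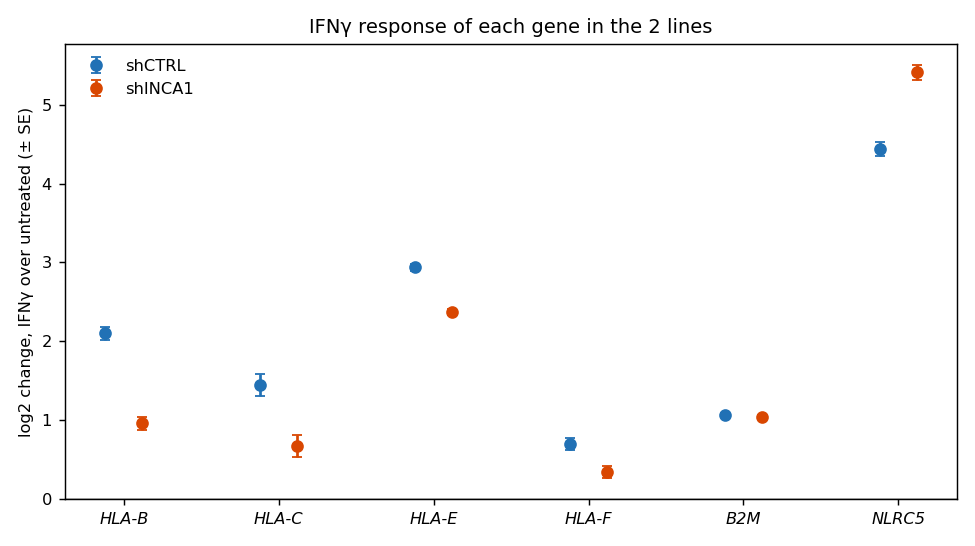
Log2 change with IFNγ over untreated (vertical axis, point and SE) for each gene in shCTRL (blue) and shINCA1 (orange) cells. NLRC5 lies higher in shINCA1 (5.41 against 4.44), the 4 HLA genes lie lower in shINCA1, and B2M is near 1 in both lines.

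The test of the difference of responses asked whether IFNγ acted to the same degree in both lines. Of the 6 genes, HLA-B and HLA-E rose less in shINCA1 cells, where 1.1% of tested genes had a lower response and 1.71% a different one in either direction. NLRC5 rose more in fold, where 0.615% had a higher one. The difference of log2 responses, shINCA1 minus shCTRL, was -1.14 ± 0.12 for HLA-B (adjusted p = 3.63e-04), -0.57 ± 0.06 for HLA-E (adjusted p = 2.80e-04) and 0.97 ± 0.12 for NLRC5 (adjusted p = 0.00144). The response in fold was thus 4.29 in shCTRL and 1.94 in shINCA1 cells for HLA-B, and 21.8 and 42.6 for NLRC5.

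HLA-C and HLA-F had lower fitted responses in shINCA1 but did not pass. HLA-C differed by -0.78 ± 0.20 (95% interval -1.21 to -0.34, adjusted p = 0.0894), and HLA-F by -0.35 ± 0.11 (-0.59 to -0.12, adjusted p = 0.171). Without untreated shCTRL library 2 the HLA-C difference was -0.57 and passed (adjusted p = 0.00594), and it also passed in DESeq2 (0.0151) and limma-voom (0.0441). For B2M the difference was -0.02 ± 0.04, with an interval of -0.10 to 0.06 (adjusted p = 0.887). Its response was 2.10-fold in shCTRL and 2.06-fold in shINCA1 cells.

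On the linear scale the gain in CPM with IFNγ was smaller in shINCA1 cells for each of the 6 genes, NLRC5 included. NLRC5 gained 147.4 CPM in the control line and 106.1 CPM with the INCA1 hairpin, or 72.0% of the former. For B2M it was 374.4 and 302.2 CPM (80.7%), and for HLA-E 537.7 and 269.7 CPM (50.2%). The gains of HLA-C, HLA-F and HLA-B in shINCA1 cells were 50.2%, 41.2% and 35.0% of those in shCTRL cells. These gains are differences of group means and were not tested.

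Without IFNγ the lines differed in 5 of the 6 genes, in both directions. HLA-B and HLA-C were higher in shINCA1 cells, where 27.4% of tested genes were higher. NLRC5, HLA-E and B2M were lower, where 29.5% were lower. A count of 5 among 6 stands beside 56.9% of all genes in either direction. NLRC5 had the largest difference, with shINCA1 libraries at 2.13 to 3.05 CPM and shCTRL libraries at 6.68 to 7.51 CPM (log2 difference -1.48 ± 0.10, adjusted p = 8.02e-08), or 35.9% of the shCTRL level. HLA-E differed by -0.32 ± 0.04 (adjusted p = 2.28e-05) and B2M by -0.26 ± 0.03 (adjusted p = 3.48e-06), and for both the libraries of the lines did not overlap.

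HLA-C was higher by 0.55 ± 0.14 (adjusted p = 0.00564), or by 0.34 (adjusted p = 6.01e-04) without untreated shCTRL library 2. HLA-B was higher by 0.29 ± 0.09 (adjusted p = 0.0126). This call was lost without untreated shCTRL library 3 (log2 difference 0.21, adjusted p = 0.0561). HLA-F did not pass, at -0.06 ± 0.08 with an interval of -0.23 to 0.11 (adjusted p = 0.558), and its libraries overlapped.

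The chromosome of each gene bears on these values. The HLA genes are on chromosome 6, where 719 tested genes outside the fixed lists had a median log2 difference of -0.61 between untreated lines. Of the 40 nearest tested genes around HLA-B and HLA-C, which are the same genes, 26 were lower and 3 higher, with a median of -0.58. HLA-B lay 0.87 and HLA-C 1.13 above this median. HLA-E lay 0.23 above a neighbour median of -0.56, so its direction turned when the median was subtracted, and HLA-F lay 0.50 above its own. The neighbours of B2M on chromosome 15 had a median of 0.38, and B2M lay 0.64 below it. Those of NLRC5 on chromosome 16 had a median of 0.17, and NLRC5 lay 1.65 below it. The part of these regional differences in the values of the 6 genes was not tested. For the IFNγ responses and their difference the neighbour medians were -0.06 to 0.03.

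With IFNγ 5 of the 6 genes were lower in shINCA1 cells, where 30.2% of tested genes were lower, 28.7% higher and 58.9% different either way. HLA-E differed by -0.89 ± 0.04 (adjusted p = 3.27e-09) and HLA-B by -0.86 ± 0.08 (adjusted p = 2.12e-06), to 54.0% and 55.2% of the shCTRL level. NLRC5 differed by -0.51 ± 0.07 (adjusted p = 8.70e-05), to 70.3%. HLA-F differed by -0.41 ± 0.08 (adjusted p = 5.36e-04) and B2M by -0.29 ± 0.03 (adjusted p = 1.47e-06), to 75.2% and 82.0%. The antisense row HLA-F-AS1 was also lower in this comparison (-0.42 ± 0.16, adjusted p = 0.0368), close to HLA-F. The libraries of the lines did not overlap in any of these genes.

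HLA-C did not pass with IFNγ, although its shINCA1 libraries (51.1 to 59.6 CPM) lay below its shCTRL libraries (63.2 to 65.9 CPM). Its log2 difference was -0.23 ± 0.14, with an interval of -0.53 to 0.08 (adjusted p = 0.180). It passed when only the groups compared were fitted (-0.23, adjusted p = 0.00824) and without untreated shCTRL library 2 (-0.22, adjusted p = 0.00363). With the neighbour medians of -0.54 to -0.57 on chromosome 6 subtracted, HLA-B and HLA-E lay 0.32 and 0.33 below their neighbours, and HLA-C and HLA-F lay 0.31 and 0.16 above theirs. B2M lay 0.63 and NLRC5 0.63 below theirs.

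**Figure D3:**
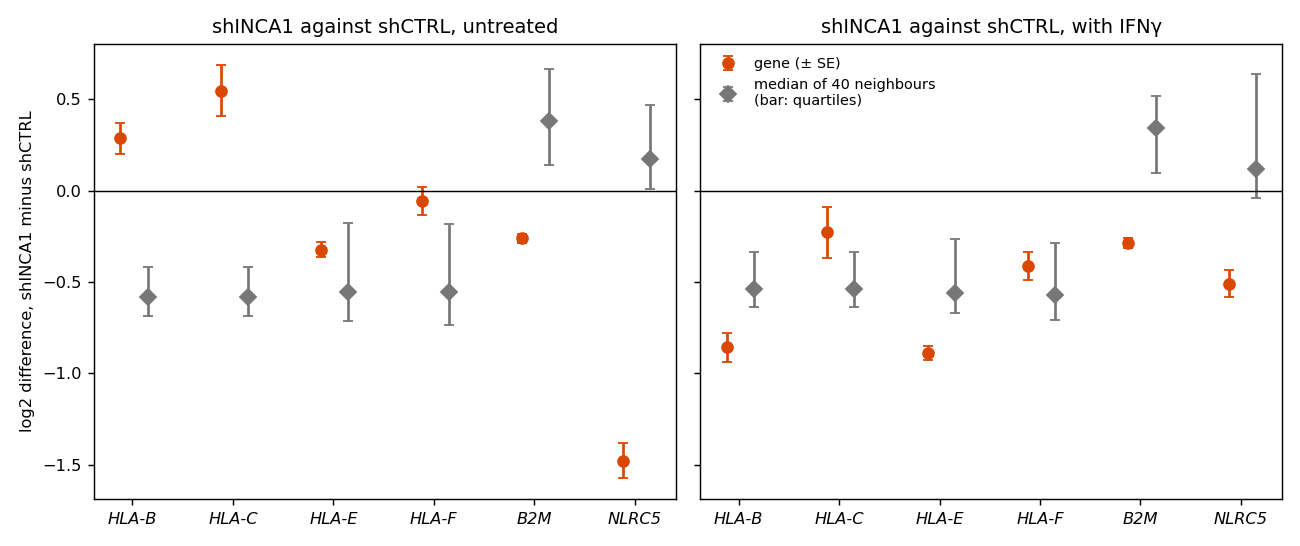
Log2 difference, shINCA1 minus shCTRL, of each gene (orange, point and SE) beside the median of its 40 nearest tested genes (grey diamond, bar from the lower to the upper quartile), untreated (left) and with IFNγ (right). HLA-B and HLA-C lie above 0 without IFNγ and below 0 with it, while their neighbours lie near -0.58 and -0.54.

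The heavy chains differed in response, so their proportions shifted. Of the summed CPM per kb of the 4 HLA genes, HLA-E held 57.4% ± 4.26 (SD, n = 3) in untreated shCTRL cells and 78.5% ± 0.13 with IFNγ. In shINCA1 cells it held 44.5% ± 1.38 and 72.1% ± 1.13. The share of HLA-C went from 27.5% ± 5.47 to 13.6% ± 0.07 in shCTRL and from 39.6% ± 1.15 to 19.7% ± 0.85 in shINCA1 cells. HLA-F went from 7.5% ± 0.34 to 2.17% ± 0.03 and from 7.02% ± 0.22 to 2.77% ± 0.05. HLA-B went from 7.58% ± 1.34 to 5.77% ± 0.07 and from 8.93% ± 0.45 to 5.41% ± 0.28. For each of the 4 genes the shares with and without IFNγ did not overlap in either line. These shares have no test.

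The 4 HLA genes together stood at 116.9 ± 5.57 CPM (SD, n = 3) in untreated shCTRL and 112.9 ± 4.78 CPM in untreated shINCA1 cells, and their libraries overlapped. With IFNγ the sums were 720.5 ± 11.8 and 412.1 ± 12.8 CPM, which were 6.17 and 3.65 times the untreated sums, and the lines were far apart. The sum does not depend on how reads were divided among these 4 genes, and HLA-E is its largest part. Reads shared with other class I rows were not tested. Per kb the untreated sums were 55.3 and 56.8, so the small untreated difference had the opposite sign on that scale. The ratio of B2M to the 4 chains per kb was 6.57 ± 0.65 in untreated shCTRL and 2.46 ± 0.05 with IFNγ. In shINCA1 cells it was 5.32 ± 0.27 and 3.42 ± 0.14. Libraries with and without IFNγ did not overlap in this ratio in either line, and it was not tested.

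**Figure D4:**
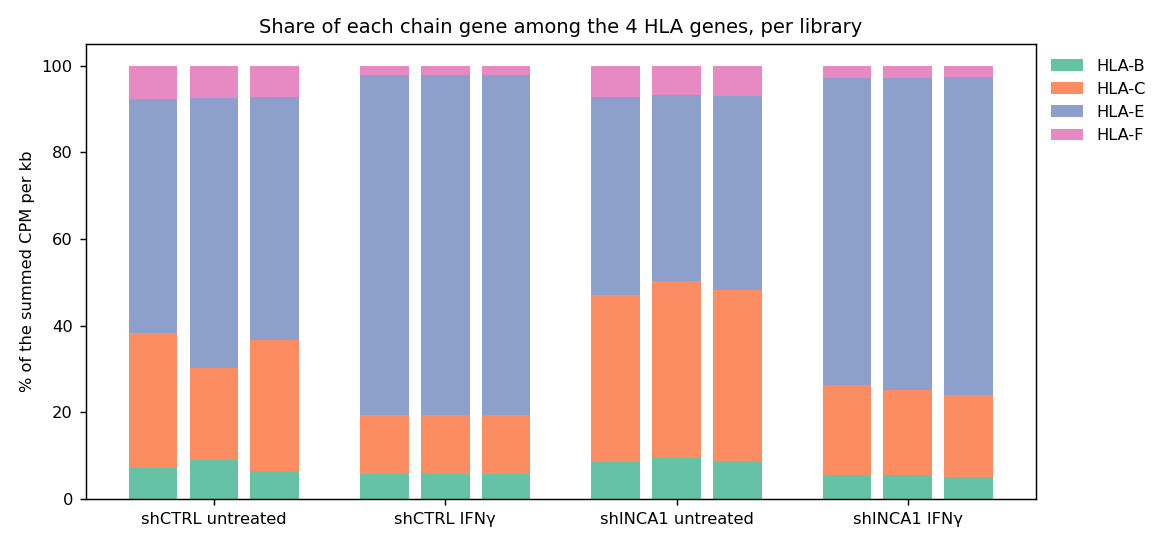
Share of each HLA gene in the summed CPM per kb of the 4 genes (vertical axis, %), 1 bar per library, 3 libraries per group. HLA-E takes 78.3% to 78.6% of each shCTRL library with IFNγ and 71.0% to 73.2% of each shINCA1 library with IFNγ.

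The profiles of other genes over the 12 libraries were set beside the 6 genes as a description. The libraries share groups and treatment, so high correlations are common, and 12968 genes were compared. HLA-E was most like PSMB8 (Pearson r of log2 CPM 0.999), TAP1 (0.998) and IFIH1 (0.997). PSMB8 and TAP1 encode an immunoproteasome subunit and a subunit of the peptide transporter. B2M was most like ADAR (0.999), IFIT2 (0.999) and GBP5 (0.998), and NLRC5 most like CSF1 (0.998), DDX60L (0.997) and SOCS3 (0.996), a feedback inhibitor of JAK signalling. HLA-B was most like TRAFD1 (0.988), XAF1 (0.986) and ADGRE5 (0.985). HLA-F was most like IFI6 (0.992), RIPK2 (0.982) and NACC2 (0.976), and HLA-C most like S100A16 (0.979), BATF2 (0.963) and ADCY7 (0.962). Among the 6 genes themselves r was 0.806 (HLA-C and NLRC5) to 0.994 (HLA-E and B2M).

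The other genes of the class I pathway were read from fixed lists. The immunoproteasome cuts proteins into peptides. All 5 genes of its list rose with IFNγ in both lines, with a median log2 change of 1.93 in shCTRL and 1.80 in shINCA1 cells. Of all tested genes 9.72% were higher with IFNγ in shCTRL and 6.13% in shINCA1 cells, with medians of -0.01 and 0.00. PSMB8 rose by 2.71 ± 0.04 and 2.32 ± 0.04, PSMB9 by 6.03 ± 0.17 and 5.69 ± 0.17. Peptide transport, trimming and loading genes had 7 of 9 raised in shCTRL (median 1.79) and 6 of 9 in shINCA1 cells (median 1.73). TAP1 rose by 5.45 ± 0.04 and 4.35 ± 0.04, and the trimming peptidase ERAP2 by 2.23 ± 0.05 and 3.17 ± 0.06.

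Genes that act in class I transcription had 9 of 16 raised in each line, beside 9.72% of all tested genes in shCTRL and 6.13% in shINCA1 cells. NFYB was lowered in shCTRL (-0.16, adjusted p = 0.0311, named after its value was seen), where 7.51% of tested genes were lower. The median log2 change was 0.28 in both. IRF1 rose by 5.96 ± 0.06 in shCTRL and 5.75 ± 0.06 in shINCA1 cells. CIITA, the class II transactivator related to NLRC5, was at 0 in every untreated library and at least 680-fold higher in shCTRL and 349.1-fold higher in shINCA1 cells with IFNγ (floor of 3 counts per library). Of 15 other class I like genes 12 were tested, with 4 raised in shCTRL (MICB, MR1, HLA-H and PROCR). In shINCA1 cells 3 were raised (MICB, MR1 and PROCR) and ULBP2 was lowered, with medians of -0.06 and -0.04. MICB, a stress-induced ligand, rose by 0.98 ± 0.05 and 0.81 ± 0.05.

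The responses of the lines differed for TAP1 (-1.11 ± 0.04, adjusted p = 1.96e-07) and TAP2 (-0.50 ± 0.07, adjusted p = 0.00413), lower in shINCA1, and for ERAP2 (0.94 ± 0.07, adjusted p = 4.79e-05), higher. TAPBPL also passed (adjusted p = 0.0179), but it was at 0 in untreated shINCA1 libraries, so no difference is given. Of the immunoproteasome genes PSMB8 differed (-0.40 ± 0.06, adjusted p = 0.00461). IRF9, a subunit of an interferon-activated transcription factor, had a difference of 0.52 ± 0.14 and did not pass (adjusted p = 0.119). Of the 16 transcription genes 0 passed in edgeR's quasi-likelihood test, 4 at an unadjusted p under 0.05, 2 in DESeq2 and 0 in limma-voom. CIITA is among the 16 but could not pass in edgeR, since it was at 0 in every untreated library of both lines. With IFNγ it was lower in shINCA1 cells (log2 difference -1.14 ± 0.07, adjusted p = 3.24e-06). Of the 12 class I like genes 0 passed, with 1 at an unadjusted p under 0.05 and 0 in the other tools. Of all tested genes 1.71% passed in edgeR's quasi-likelihood test, so counts of 0 in these lists lie near that share.

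Between untreated lines 8 of 9 transport and loading genes were lower in shINCA1 cells (median -0.41), as were 3 of 5 immunoproteasome genes (-0.32) and 10 of 16 transcription genes (-0.29, and -0.36 without CIITA, which was at 0 in both lines). Of all tested genes 29.5% were lower, and their median was -0.01. ERAP2 differed by -1.75 ± 0.06. With IFNγ 9 of 9, 4 of 5 and 12 of 16 were lower, with medians of -0.81, -0.40 and -0.38, beside 30.2% of all tested genes lower and an all-gene median near 0, and 1 transcription gene, NFYB, was higher. TAP1 differed by -1.40 ± 0.03. Of these lists TAP1, TAP2, TAPBP, PSMB8, PSMB9 and NFYA lie on chromosome 6. The median log2 difference of the 719 tested genes there was -0.61 untreated and -0.63 with IFNγ. The part of this regional difference in the counts and medians of the lists was not tested. Of the 12 class I like genes 4 were lower and 3 higher untreated, near the 29.5% and 27.4% of all tested genes, and 6 were lower and 3 higher with IFNγ, beside 30.2% and 28.7%. The 3 higher were PROCR (0.69 ± 0.04 untreated, 0.61 ± 0.04 with IFNγ), AZGP1 (2.15 ± 0.21 and 2.43 ± 0.22) and CD1D. HLA-H, MICA and ULBP3, lower in both, lie on chromosome 6, as do MICB and ULBP2, lower with IFNγ. FCGRT, lower in both, and the 3 higher genes do not. The part of the region in these counts was not tested. MICA, which lies on chromosome 6 near HLA-B, differed by -0.55 ± 0.06 untreated and -0.57 ± 0.06 with IFNγ, close to the neighbour median. MICB, also on chromosome 6, lay nearer 0, at -0.03 ± 0.05 (adjusted p = 0.6) and -0.20 ± 0.05 (adjusted p = 0.00266). HLA-B moved from 0.29 to -0.86.

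**Figure D5:**
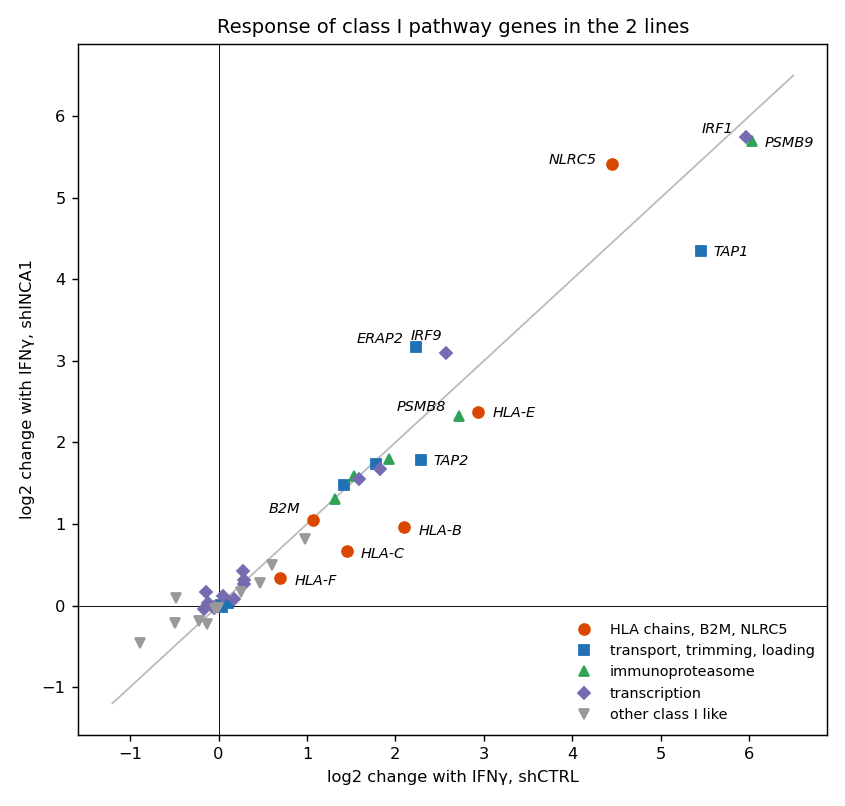
Log2 change with IFNγ in shCTRL (horizontal axis) and shINCA1 cells (vertical axis) for the 6 genes and tested genes of the fixed class I lists. The grey line marks equal change, and CIITA, TAPBPL and FCGRT, at or near 0 in some groups, are left out. NLRC5, ERAP2 and IRF9 lie above the line, HLA-B, HLA-C, HLA-E, HLA-F, TAP1 and TAP2 below it, and B2M lies on it.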

How the data were processed

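The authors deposited 1 table of estimated counts per gene symbol for the 12 samples, whole numbers not scaled between samples. FastQC, Trimmomatic, HISAT2, StringTie and build hg19 are named, per the submitters' processing notes. No source used here gives their versions, the annotation or how reads were counted and by which strand. The value 3 occurs 5790 times and 4 only 1317 times, so a fragment is often worth about 3 units. The 6 genes had at least 128 estimated counts in each library, which may stand for fewer fragments.

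The fit used edgeR 4.0.16 in R 4.3.3: filterByExpr (15769 genes kept), TMM factors and 1 quasi-likelihood model (glmQLFit, glmQLFTest) of all 12 samples. Tests were two-sided, adjusted by Benjamini-Hochberg over all tested genes, at a threshold of 0.05. SE is the log2 change over the square root of F. Lengths are those of the reference transcript in GENCODE v44. Neighbours are the 20 nearest tested genes on each side, listed genes left out, and 14403 tested genes had a matching symbol. The genes named are the 6, HLA-F-AS1, cell type markers, at most 4 per list by p in a comparison, and the 3 most correlated with each of the 6 (mean of at least 1 CPM). Named outside this rule, after their values were seen, were NFYB and, between lines, MICB, CD1D, FCGRT, ULBP2 and ULBP3. These genes and lists were chosen with earlier results of these data known. The counts over the lists include 1 transcription gene that is not reported here and not plotted. The scripts were tested on simulated data.

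The alternatives were DESeq2 1.42.0 size factors, its Wald test, upper-quartile factors, no filter, at least 5 CPM in 3 samples, limma-voom (limma 3.58.1), a replicate block, fits of the compared groups alone, every library left out in turn, neighbour medians subtracted and the HLA rows summed.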

Additional observations from a re-analysis of the deposited data

Results flagged for a closer look

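The difference of the IFNγ responses passed the test for 3 of the 6 genes. Its value, shINCA1 minus shCTRL on the log2 scale, was -1.14 for HLA-B, -0.57 for HLA-E and 0.97 for NLRC5. All 3 kept their direction and stayed past the threshold in each of the 19 tested alternatives, including every library left out. The ranges were -1.21 to -1.06 for HLA-B (adjusted p at most 0.00204), -0.63 to -0.52 for HLA-E (at most 0.00165) and 0.85 to 1.12 for NLRC5 (at most 0.00568). Groups of 3 samples were too small for a test of single outlying libraries.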

How the results depend on the processing

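The number of the 6 genes past the threshold stayed within 1.5 times its reported value under every alternative. Subtracting the neighbour median turned the untreated line difference of HLA-E to 0.23 and the IFNγ line difference of HLA-F to 0.16. With the 4 HLA rows summed, the untreated line difference was -0.0504 in CPM and 0.0395 in CPM per kb, against 0.29 and 0.55 for HLA-B and HLA-C alone. In the tested alternatives 4 calls were lost when a library was left out (HLA-F in the shINCA1 response 3 times, HLA-B between untreated lines), and HLA-C gained calls, as given with those results. The samples share only a number: deviations of same-numbered samples had correlations of -0.036 to 0.067 in 18 pairs, none over 0.1. The replicate block changed no call of the 6 genes, with -1.15 for HLA-B and 0.97 for NLRC5 in the difference of responses. Over all genes, upper-quartile factors gave 1970 genes lower with IFNγ in shCTRL (1184 reported) and 733 in shINCA1 (465 reported), the latter 718 in DESeq2 and 281 without untreated shINCA1 library 3. For the difference of responses DESeq2 gave 192 higher and 317 lower genes (97 and 173 reported), 57 higher without shINCA1 IFNγ library 3, and 95 to 115 lower without shCTRL untreated library 2, shCTRL IFNγ library 1 or 2, shINCA1 untreated library 3 or shINCA1 IFNγ library 2. The cause was not tested. At 128 estimated counts, the lowest value (NLRC5 in untreated shINCA1 cells), depth limits precision most. A fragment is often worth about 3 units, so the fragments behind this value may be fewer. Counting error was not separated from the spread between libraries.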
